A study of Homo sapiens with 52 samples.

Results

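The 10 genes described here encode core proteins of the RNA interference machinery, namely DROSHA, DGCR8, XPO5, DICER1, TARBP2, AGO1, AGO2, AGO3, AGO4 and TNRC6A. They were chosen by name, and all 10 were found among the 78894 genes quantified. Their mRNA was measured by polyA-selected, strand-specific RNA sequencing in 52 samples of SUM159PT, MDA-MB-231 and HS578T, established human breast cancer cell lines described by the labels as claudin-low. NRP1, which encodes the cell surface receptor neuropilin 1, was knocked down in each line through small interfering RNA (siRNA) and through short hairpin RNA (shRNA). The siRNA groups were siNT (a non-targeting control), siNRP1#3 and siNRP1#5, each delivered by lipid transfection at 20 nM with RNA taken after 72 hrs. The shRNA groups were shNT (non-targeting), shNRP1#3 and shNRP1#5, expressed from a lentiviral vector in cells selected with puromycin, with RNA taken 48 hrs after seeding. The #3 reagents were directed at the transmembrane form of NRP1 only, and the #5 reagents at both the transmembrane and the soluble form. By the methods, siNRP1#5 and shNRP1#5 share their sequence, whereas siNRP1#3 and shNRP1#3 do not and bind at nearby sites. Of the 18 groups, 16 held 3 samples, and SUM159PT siNRP1#5 and HS578T shNRP1#3 held 2. The shRNA replicates were successive passages of transduced cells, so their spread is not that of separate transductions. Delivery, selection and harvest time all changed together between siRNA and shRNA, and their parts in a difference cannot be told apart.

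These proteins act in order along the microRNA pathway. In the nucleus, DROSHA and its partner DGCR8 form the Microprocessor, which cuts hairpins out of primary microRNA transcripts, and XPO5 (exportin 5) carries the hairpins to the cytoplasm. There DICER1, helped by the double-stranded RNA binding protein TARBP2, cuts them into duplexes, which are loaded into an Argonaute protein (AGO1 to AGO4). Among the Argonautes AGO2 is known for slicing its target, and TNRC6A, a GW182 protein, links Argonaute to deadenylation and decapping. An shRNA transcribed in the nucleus needs XPO5 and DICER1, whereas a synthetic siRNA duplex enters at the loading step. DGCR8 mRNA itself carries hairpins that the Microprocessor cuts, a known feedback loop.

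The microRNAs lying inside DGCR8 are shown because they mark those hairpins in DGCR8, which had the largest shRNA against siRNA difference of the members in HS578T. All 3 mature sequences come from RefSeq (GRCh38.p14, chromosome 22, plus strand), with the seed, bases 2 to 8, in capitals. In the GENCODE 44 annotation of the transcript DGCR8-201 they lie in exon 2. The first was in the untranslated part of that exon and the others in its coding sequence. The seeds all differed from each other. Mature microRNAs were not measured by these libraries.
hsa-miR-3618 (chr22:20085797-20085818): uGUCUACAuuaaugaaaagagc
hsa-miR-1306-5p (chr22:20086072-20086093): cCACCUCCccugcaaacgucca
hsa-miR-1306-3p (chr22:20086112-20086129): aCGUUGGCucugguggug

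Expected counts summed to between 25310443 and 72003441 per sample. NRP1 fell to between 3.32 and 60.6% of its own non-targeting control on average in the 12 knockdown groups. By this measure MDA-MB-231 siNRP1#3 was the least reduced. The measure sums all NRP1 transcripts, including those of the soluble form, which the #3 reagents do not target. Of the 4 markers low in claudin-low cells, CLDN4 was not low in MDA-MB-231, at a median of 164 TPM (transcript abundance scaled for length and depth) in its non-targeting controls against at most 2.34 in those of the other lines, and CLDN3 and CLDN7 were also highest there. VIM, a mesenchymal marker that such cells express, was at 2303 TPM or more in every control. The other markers taken as expressed, ZEB1, SNAI1 and ITGA6, were far lower. Their control medians ran from 3.35 TPM (SNAI1 in HS578T, lowest sample 0.8) to 91.5 TPM (ITGA6 in MDA-MB-231). In the HS578T siNRP1#5 samples, 83 genes nearly silent in HS578T controls but clearly expressed in MDA-MB-231 reached, as medians per sample, 17.1, 14.3 and 8.65% of the level they have in MDA-MB-231, against 0.551 to 1.41% in siNT. In HS578T siNRP1#3 the figures were 2.11, 2.71 and 5.32%. Likewise 80 genes of SUM159PT, nearly silent in HS578T controls, reached 2.85, 8.15 and 1.74% of their SUM159PT level in HS578T siNRP1#5, against 0.355 to 0.494% in siNT. The siNT values are low in part because the genes were chosen as nearly silent in the HS578T controls. The HS578T shNRP1 samples had no part in that choice. In them the 83 genes stood at 0.203 to 0.362% and the 80 genes at 0.179 to 0.317%. The source of these transcripts was not tested. Results on HS578T siRNA samples are therefore given with and without siNRP1#5 where a call rests on it.

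All 10 genes passed the filter on low counts in each cell line. Levels compared between samples are given as CPM, a gene's expected count relative to the TMM-scaled total of its sample. The highest-count member was XPO5, with 2473 to 12274 expected counts per sample, and AGO4 was the lowest, with 61 to 700. In the GENCODE 44 annotation of GRCh38, DROSHA spans 31400494 to 31532196 on the minus strand of chromosome 5, DGCR8 20080221 to 20111877 on the plus strand of chromosome 22, and XPO5 43522334 to 43576038 on the minus strand of chromosome 6. DICER1 spans 95086228 to 95158010 on the minus strand of chromosome 14, and TARBP2 53500921 to 53506431 on the plus strand of chromosome 12. AGO4 (35808016 to 35857890), AGO1 (35869808 to 35930532) and AGO3 (35930718 to 36072500) lie in that order on the plus strand of chromosome 1. AGO3 starts 186 bases after the end of AGO1. AGO2 spans 140520156 to 140635633 on the minus strand of chromosome 8, and TNRC6A 24610209 to 24827632 on the plus strand of chromosome 16.

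The first question was whether the machinery differed between cells that received siRNA and cells that expressed shRNA. By edgeR, DROSHA, DGCR8, DICER1 and AGO1 were higher with shRNA in all 3 lines, TARBP2 was lower in SUM159PT and MDA-MB-231, and AGO3 was higher in MDA-MB-231. XPO5, AGO2, AGO4 and TNRC6A passed this test in none of the lines. With limma on log2(TPM + 0.1), which measures RNA per transcript length, AGO2 was higher with shRNA in SUM159PT (0.96, adjusted p = 0.00169) and HS578T (0.55, adjusted p = 0.0466), and AGO3 in SUM159PT (0.93, adjusted p = 0.00287). By the same test AGO4 (0.69, limma adjusted p = 0.00372) and TNRC6A (0.36, limma adjusted p = 0.0351) were higher with shRNA in MDA-MB-231, whereas DROSHA in HS578T (0.28, limma adjusted p = 0.18) and TARBP2 in SUM159PT did not pass. The contrast set the mean of the 3 shRNA groups against the mean of the 3 siRNA groups, with edgeR's quasi-likelihood test and Benjamini-Hochberg adjustment over all genes tested in a line. In SUM159PT 4 members were called higher and 1 lower, where 40.4% of all 20067 genes were called, 19.2% higher and 21.2% lower. In MDA-MB-231 5 were higher and 1 lower, against 54.2% of 18800 genes called, 28.5% higher and 25.7% lower. In HS578T 4 were higher and none lower, against 49.1% of 19661 genes called, 23.9% higher and 25.1% lower. The share of members called in a line was thus near the background share. The median log2 fold change over the members was 0.28, 0.17 and 0.17 in SUM159PT, MDA-MB-231 and HS578T, beside 0.00, 0.02 and 0.00 over all genes.

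**Figure D1:**
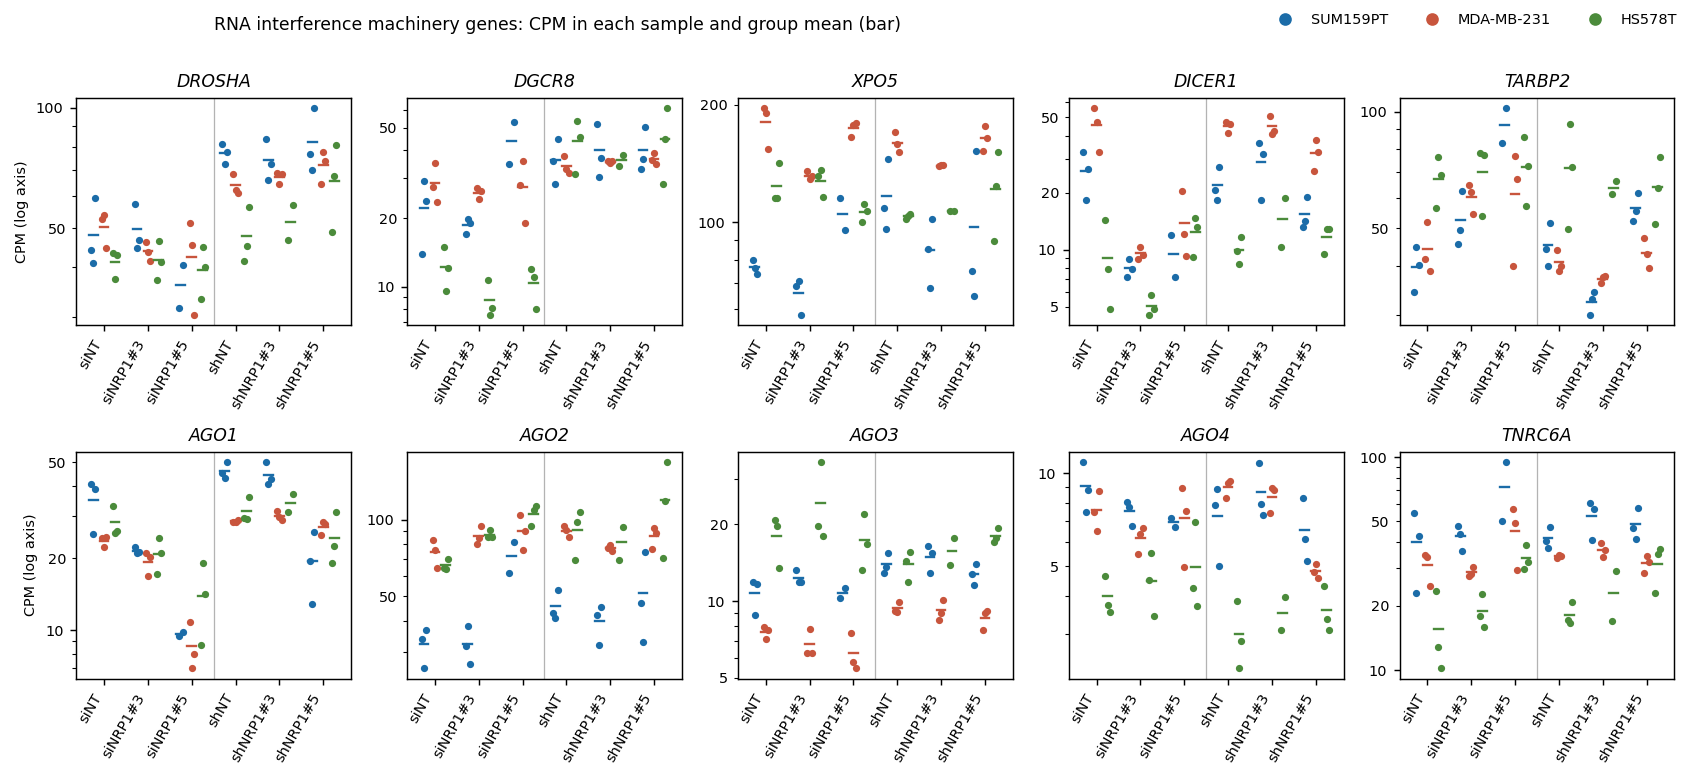
TMM-scaled CPM (log axis) of each of the 10 genes in each of the 52 samples, by treatment, with siRNA groups left and shRNA groups right of the grey line. Points are samples, short bars are group means and colours are cell lines. DROSHA sits higher in shRNA samples, DGCR8 does so by the widest margin in HS578T, and DICER1 is low in siNRP1#3 and siNRP1#5 of SUM159PT and MDA-MB-231.

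DROSHA, the ribonuclease of the Microprocessor, gave non-overlapping ranges in 2 lines. In SUM159PT it ran from 31.5 to 59.4 CPM (median 44.4) in the 8 siRNA samples and from 65.9 to 99.7 CPM (median 76.5) in the 9 shRNA samples. In MDA-MB-231 the siRNA samples ran from 30.4 to 53.8 CPM (median 45.3) and the shRNA samples from 61.2 to 77.4 CPM (median 68.2). In HS578T the ranges of 33.3 to 46.5 CPM (median 41.1) and 41.5 to 80.9 CPM (median 52.7) overlapped, and 6 of the 8 shRNA samples lay above all siRNA samples. Every shRNA sample of SUM159PT and MDA-MB-231 thus exceeded every siRNA sample of the same line. The log2 fold changes (± SE) were 0.80 ± 0.12, 0.53 ± 0.09 and 0.44 ± 0.125 in SUM159PT, MDA-MB-231 and HS578T, with edgeR adjusted p of 0.000133, 4.49e-05 and 0.00851. The HS578T call was lost when only the NT and #3 groups were compared (0.28, edgeR adjusted p = 0.173) and with limma on TPM.

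DGCR8, the RNA-binding partner of DROSHA, was 4.01-fold higher with shRNA in HS578T. Its siRNA samples there ran from 7.56 to 15.0 CPM (median 10.7), and its shRNA samples from 28.3 to 60.9 CPM (median 41.4), with no overlap. The difference was already present between the controls, with siNT at 15.0, 9.6 and 12.1 CPM and shNT at 31.4, 53.7 and 45.6 CPM. In SUM159PT the ranges of 13.9 to 52.9 CPM and 28.3 to 52.1 CPM overlapped, the siNRP1#5 samples at 34.7 and 52.9 CPM being the highest of the siRNA samples. In MDA-MB-231 the ranges were 19.1 to 35.6 CPM and 31.8 to 38.8 CPM. The log2 fold change was 2.00 ± 0.18 in HS578T (edgeR adjusted p = 4.82e-07), 0.53 ± 0.17 in SUM159PT (0.0204) and 0.33 ± 0.10 in MDA-MB-231 (0.0105). Without the siNRP1#5 samples the HS578T value was again 2.00 (edgeR adjusted p = 1.23e-05). In SUM159PT the call was lost without siNRP1#5 replicate 2 (edgeR adjusted p = 0.0599), when the controls were left out (0.106) and with counts of protein-coding transcripts alone (0.45, edgeR adjusted p = 0.0534).

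Whether the shRNA against siRNA difference was the same in all lines was tested in a model over the 52 samples. DGCR8 (edgeR adjusted p = 1.57e-07) and AGO3 (0.00146) differed between lines, and the other 8 members did not pass, with adjusted p from 0.0856 to 0.783. Of all 23416 genes in this test, 43.1% passed. DGCR8 was 1.44 higher on the log2 scale in HS578T than in SUM159PT in this contrast. Ranges of siRNA and shRNA samples did not overlap for DROSHA in SUM159PT, for DROSHA and AGO1 in MDA-MB-231 and for DGCR8 in HS578T. Among all genes tested 3.13, 6.13 and 8.19% had such ranges in the lines taken in that order, beside 1, 2 and 1 of the 10 members.

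The genes beside DGCR8 on chromosome 22 were looked up after its values had been seen. TRMT2A, a tRNA methyltransferase gene that lies 3 bases past the end of DGCR8 in RefSeq, changed by 0.40 in HS578T (edgeR adjusted p = 0.0262), and RANBP1, 4232 bases away, by 0.77 (0.000327). TANGO2, ending 13077 bases before DGCR8, was at 0.04 (0.849), and ZDHHC8, 19932 bases after it, fell by 0.57 on the log2 scale (0.0016). In HS578T none of these 4 genes changed by as much as the 2.00 of DGCR8.

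XPO5, which exports both microRNA precursors and shRNA hairpins, had overlapping ranges in every line. In SUM159PT it ran from 57.9 to 115 CPM with siRNA and 64.7 to 152 CPM with shRNA, and in MDA-MB-231 from 129 to 196 CPM and 139 to 177 CPM. The medians in HS578T were 115 and 106 CPM. The log2 fold changes of 0.27 ± 0.16, -0.10 ± 0.06 and -0.10 ± 0.11 did not pass (edgeR adjusted p = 0.191, 0.188 and 0.498).

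DICER1, the ribonuclease that makes the mature duplex, was higher with shRNA in all 3 lines, but its siRNA samples fell into separate levels by treatment. In MDA-MB-231 siNT stood at 55.8, 47.2 and 33 CPM, siNRP1#3 at 8.95, 10.4 and 9.42 CPM, and siNRP1#5 at 20.4, 12.1 and 9.23 CPM. The 9 shRNA samples ran from 25.9 to 50.9 CPM (median 41.2), all above both siNRP1 groups. Of these, shNRP1#5 replicate 1 lay below every siNT sample, and the others overlapped siNT. SUM159PT had the same order, with siNT at 32.9, 18.4 and 26.6 CPM, siNRP1#3 at 7.22, 8.95 and 7.96 CPM, siNRP1#5 at 11.9 and 7.17 CPM and shRNA samples from 13.2 to 36.4 CPM (median 19.0). In HS578T siNT stood at 14.3, 7.94 and 4.86 CPM, siNRP1#3 at 4.55, 5.76 and 4.88 CPM, siNRP1#5 at 9.15, 14.7 and 13.2 CPM and the shRNA samples between 8.38 and 18.7 CPM (median 11.1). The difference over all groups was 0.75 ± 0.17 in SUM159PT (edgeR adjusted p = 0.00284), 1.10 ± 0.14 in MDA-MB-231 (2.72e-06) and 0.54 ± 0.20 in HS578T (0.0341). Between the controls alone DICER1 did not pass in any line, with log2 fold changes of -0.26, -0.05 and 0.17 (edgeR adjusted p = 0.557, 0.907 and 0.764). The HS578T call was lost on leaving out any of 9 of its 17 samples in turn, namely siNT replicates 2 and 3, siNRP1#3 replicates 1 and 3, siNRP1#5 replicate 1, shNT replicate 3, shNRP1#3 replicate 2 and shNRP1#5 replicates 2 and 3 (edgeR adjusted p up to 0.161). It was 0.83 (edgeR adjusted p = 0.0109) without siNRP1#5.

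TARBP2, the DICER1 partner, moved the other way. In MDA-MB-231 it ran from 38.9 to 76.8 CPM (median 54.6) with siRNA and from 36.2 to 47.3 CPM (median 39.6) with shRNA, a log2 fold change of -0.48 ± 0.10 (edgeR adjusted p = 0.000541). In SUM159PT the ranges were 34.4 to 102 CPM (median 47.5) and 30.0 to 61.8 CPM (median 44.2), with siNRP1#5 at 82.9 and 102 CPM on top, and the log2 fold change was -0.42 ± 0.11 (edgeR adjusted p = 0.00594). Without the sequence #5 groups it was -0.28 (edgeR adjusted p = 0.0978), without the count filter -0.40 (0.053), and by TPM -0.04 (limma adjusted p = 0.839). In HS578T the value was -0.06 ± 0.15 (0.765).

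AGO1 was the Argonaute that passed the test in all 3 lines. In MDA-MB-231 the siRNA samples ran from 6.96 to 24.5 CPM (median 20.3) and the shRNA samples from 25 to 31.4 CPM (median 28.3), with no overlap. In SUM159PT the ranges of 9.51 to 40.5 CPM (median 21.8) and 12.9 to 50.3 CPM (median 42.6) overlapped through shNRP1#5. In HS578T they were 8.67 to 33 CPM (median 21.1) and 19.0 to 36.9 CPM (median 30.1). The log2 fold changes were 0.80 ± 0.14, 0.81 ± 0.08 and 0.57 ± 0.16 (edgeR adjusted p = 0.000426, 2.18e-07 and 0.00697). In HS578T the call rested on siNRP1#5, since without that group it was 0.30 (edgeR adjusted p = 0.13).

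AGO2, the slicing Argonaute, ran from 26.0 to 81.7 CPM with siRNA and 32.0 to 74.4 CPM with shRNA in SUM159PT, and its log2 fold changes of 0.09, -0.02 and 0.19 did not pass (edgeR adjusted p = 0.679, 0.811 and 0.31). AGO3 was higher with shRNA in MDA-MB-231, at 5.46 to 7.89 CPM against 7.73 to 10.1 CPM (0.37 ± 0.09, edgeR adjusted p = 0.00131). In SUM159PT AGO3 was at 0.28 ± 0.11 (0.0591) and in HS578T at -0.30 ± 0.16 (0.144), where siNRP1#3 replicate 2 had the highest level of 35.1 CPM. AGO4 gave -0.08, 0.00 and -0.39 and TNRC6A -0.09, -0.05 and 0.15, none of which passed. TNRC6A in MDA-MB-231 turned to 0.36 (limma adjusted p = 0.0351) when TPM were tested in place of counts.

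**Figure D2:**
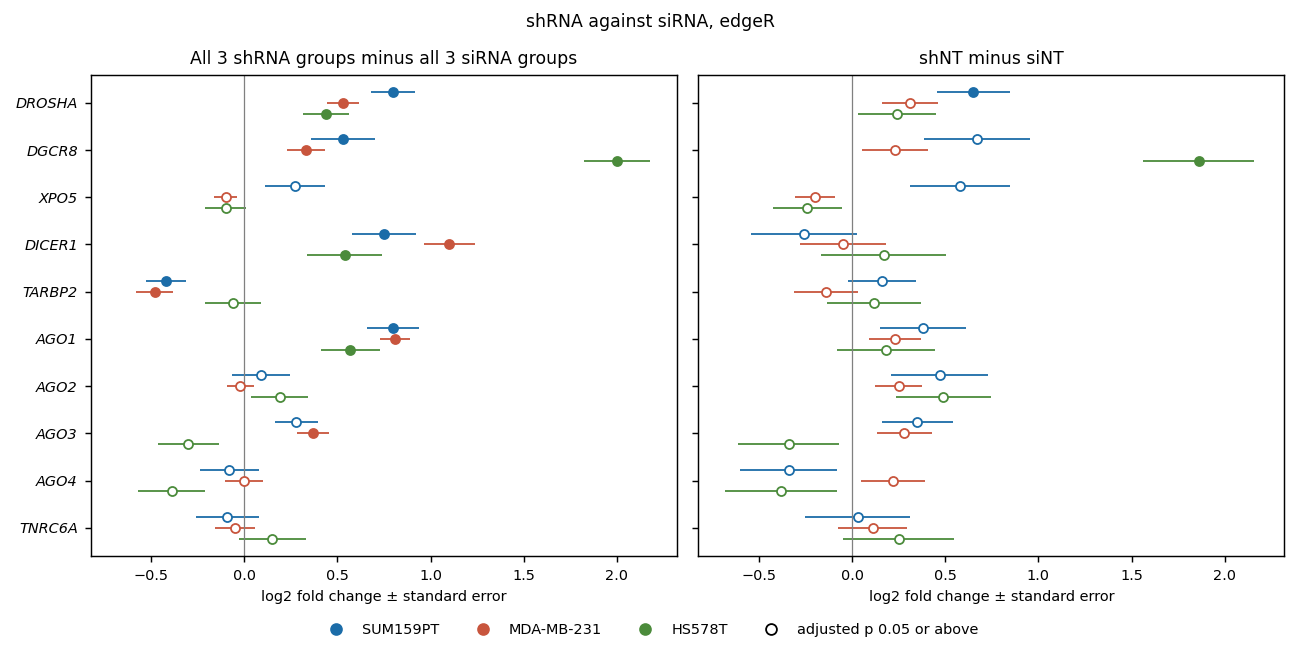
Log2 fold change of each gene with its standard error from edgeR, for all shRNA groups minus all siRNA groups (left) and for shNT minus siNT (right), in the 3 cell lines. Filled points have an adjusted p below 0.05. DGCR8 in HS578T lies near 2 in both panels, whereas DICER1 and AGO1 lie above 0 with filled points only on the left.

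The controls shNT and siNT carry no NRP1 sequence and so compare shRNA with siRNA without the knockdown. Delivery, selection and harvest time still change together between them. NRP1 itself was higher in shNT than in siNT in MDA-MB-231 (1.23 ± 0.147, edgeR adjusted p = 1.68e-05). It did not pass in SUM159PT (0.15, 0.754) or HS578T (0.31, 0.402). DROSHA was higher in SUM159PT shNT, at 81.2, 72.5 and 77.3 CPM against 44, 41.0 and 59.4 CPM in siNT (log2 fold change 0.65 ± 0.195, edgeR adjusted p = 0.0349). DGCR8 was higher in HS578T (1.86 ± 0.30, edgeR adjusted p = 0.00118). These were the members called between controls, 1, 0 and 1 of 10 in SUM159PT, MDA-MB-231 and HS578T respectively, where 14.4, 20.6 and 17.9% of all genes were called. At an unadjusted p below 0.05, 3, 0 and 1 members passed in the 3 lines by edgeR. In MDA-MB-231 DROSHA stood at 52.8, 53.8 and 44.6 CPM in siNT and 68.2, 62.4 and 61.2 CPM in shNT without overlap, yet its 0.31 ± 0.15 did not pass (edgeR adjusted p = 0.148). The SUM159PT call of DROSHA was lost on leaving out any of the 3 shNT samples, siNT replicate 1 or siNT replicate 2 (edgeR adjusted p up to 0.116).

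The next comparisons set each NRP1 knockdown against its own non-targeting control. Both siRNAs share siNT and both shRNAs share shNT within a line, so their values are given side by side. DICER1 fell with both siRNAs in SUM159PT and MDA-MB-231, and AGO1 fell with siNRP1#5 in all 3 lines. Whether AGO1 responded differently to the 2 siRNAs was not tested. With shRNA, the members that passed were AGO1 in SUM159PT and AGO4 in MDA-MB-231, both with shNRP1#5.

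**Figure D3:**
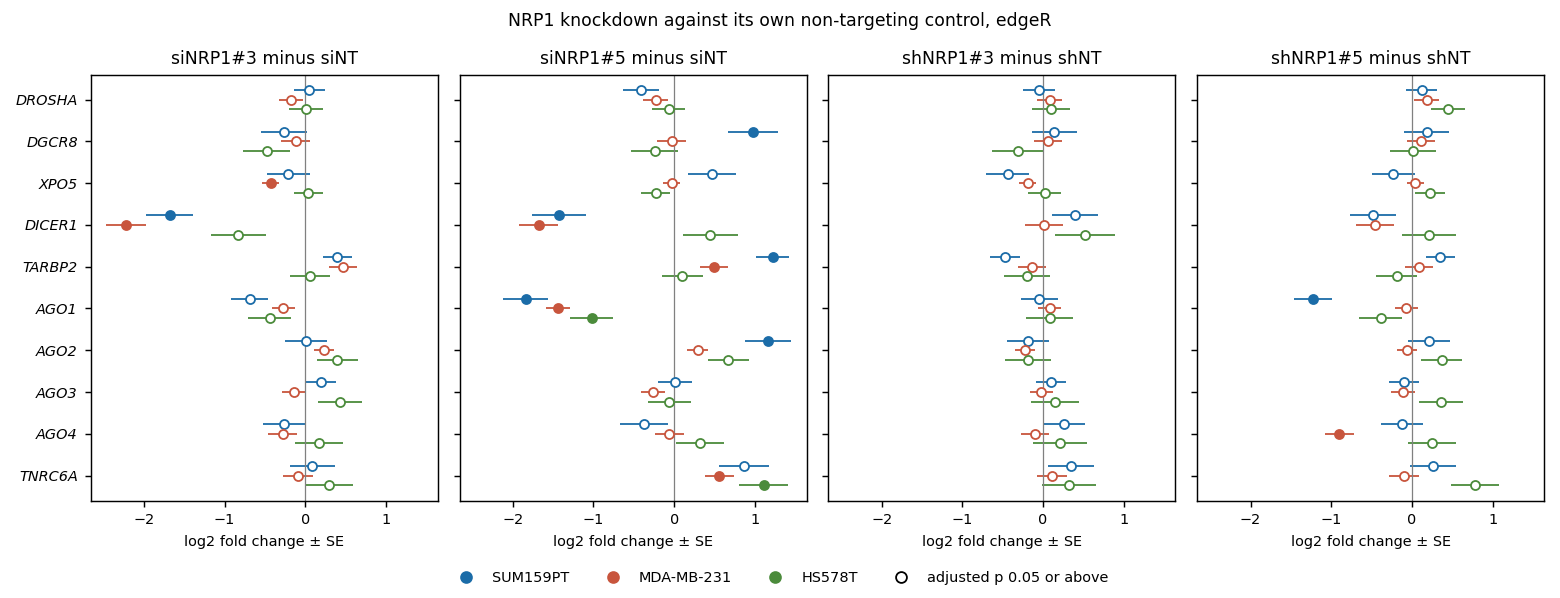
Log2 fold change with standard error of the 10 genes in each NRP1 knockdown against its own control, for siNRP1#3, siNRP1#5, shNRP1#3 and shNRP1#5, in the 3 cell lines. Filled points have an edgeR adjusted p below 0.05. DICER1 lies below -1.4 in SUM159PT and MDA-MB-231 in both siRNA panels, AGO1 is filled in all 3 lines with siNRP1#5, and no point is filled with shNRP1#3.

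With siNRP1#3, DICER1 was 3.21-fold lower in SUM159PT (log2 fold change -1.68 ± 0.29, edgeR adjusted p = 0.00266) and 4.66-fold lower in MDA-MB-231 (-2.22 ± 0.245, 4.36e-06). In HS578T it was at -0.83 ± 0.34 and did not pass (edgeR adjusted p = 0.179). XPO5 fell in MDA-MB-231 from 196, 191 and 154 CPM in siNT to 135, 129 and 131 CPM (-0.43 ± 0.11, edgeR adjusted p = 0.00556). AGO1 with siNRP1#3 was at -0.69 ± 0.231, -0.27 ± 0.141 and -0.44 ± 0.264 in the same order of lines and did not pass (edgeR adjusted p = 0.073, 0.172 and 0.384). The SUM159PT value passed by DESeq2 (adjusted p = 0.034) and with protein-coding transcripts alone (-0.91, 0.00756), where that of MDA-MB-231 passed too (-0.46, 0.0158). TARBP2 in MDA-MB-231 was at 0.47 ± 0.174 (edgeR adjusted p = 0.0513) and passed without the count filter (0.0201), with only its 2 groups fitted (0.019) and by DESeq2 (0.0386). Called members numbered 1, 2 and 0 of 10 in SUM159PT, MDA-MB-231 and HS578T, where 8.66, 25.7 and 4.65% of all genes were called. In HS578T 1 member passed at an unadjusted p below 0.05 by edgeR.

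With siNRP1#5, DICER1 was at -1.43 ± 0.34 in SUM159PT (edgeR adjusted p = 0.00917) and -1.68 ± 0.24 in MDA-MB-231 (3.73e-05). In HS578T DICER1 was at 0.45 ± 0.34 (0.376), in the samples where the 83 MDA-MB-231 genes stood at 17.1, 14.3 and 8.65% of their level in that line. DICER1 was higher in MDA-MB-231 controls, at 33 to 55.8 CPM, and in SUM159PT controls than in those of HS578T. The part of this in the HS578T value was not tested. AGO1 fell by 1.84 ± 0.28 on the log2 scale in SUM159PT (edgeR adjusted p = 0.000842), from 40.5, 25.2 and 38.7 CPM to 9.51 and 9.83 CPM. In MDA-MB-231 it fell from 24.3, 22.2 and 24.5 CPM to 10.8, 6.96 and 7.98 CPM (-1.44 ± 0.145, edgeR adjusted p = 6.04e-07), and in HS578T from 33, 25.4 and 26.0 CPM to 8.67, 19.0 and 14.2 CPM (-1.02 ± 0.27, 0.0145). No siNRP1#5 sample reached the siNT range of its line. AGO3 and AGO4, the neighbours of AGO1 on chromosome 1, did not pass with siNRP1#5, with log2 fold changes between -0.37 and 0.32.

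Other members rose with siNRP1#5. In SUM159PT TARBP2 rose from 34.4, 44.9 and 40.3 CPM to 82.9 and 102 CPM (1.22 ± 0.20, edgeR adjusted p = 0.00123), AGO2 from 34.0, 26.0 and 36.9 CPM to 61.9 and 81.7 CPM (1.16 ± 0.29, 0.0118), and DGCR8 by 0.98 ± 0.31 (0.0394). In MDA-MB-231 TARBP2 (0.49, 0.0387) and TNRC6A (0.56, 0.0267) passed, and both calls were lost on leaving out siNRP1#5 replicate 2 or siNT replicate 3, among other samples (edgeR adjusted p up to 0.264 and 0.13). In HS578T TNRC6A rose from 23.5, 12.9 and 10.2 CPM to 29.7, 38.7 and 32.3 CPM (1.11 ± 0.30, edgeR adjusted p = 0.0178). TNRC6A was also higher in MDA-MB-231 and SUM159PT than in HS578T controls. The part of the raised genes of those lines in this value was not tested. Called members numbered 5, 4 and 2 of 10, where 17.9, 29.4 and 18.7% of all genes were called in SUM159PT, MDA-MB-231 and HS578T. The SUM159PT group held 2 samples, and in a fit of siNRP1#5 and siNT alone 0 of its 5 calls passed. Without its replicate 3 the DICER1, AGO2 and DGCR8 calls were lost (edgeR adjusted p up to 0.252), as was that of DGCR8 without any of 5 other samples, whereas AGO1 and TARBP2 passed with any sample left out. In HS578T the AGO1 call was lost without siNRP1#5 replicate 1 (edgeR adjusted p = 0.0595) and the TNRC6A call without siNRP1#5 replicate 2, siNT replicate 2 or siNT replicate 3 (up to 0.0816).

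With shNRP1#3 no member passed in any line, where 1.4, 3.65 and 0.0356% of all genes were called, and 1, 0 and 0 members had an unadjusted edgeR p below 0.05. With shNRP1#5 the members called were 1, 1 and 0 of 10, against 5.94, 20.7 and 0.946% of all genes. AGO1 fell in SUM159PT from 45.3, 43.1 and 50.3 CPM in shNT to 19.4, 12.9 and 25.8 CPM (-1.23 ± 0.23, edgeR adjusted p = 0.00477). AGO4 fell in MDA-MB-231 from 8.3, 9.28 and 9.46 CPM to 4.77, 5.07 and 4.58 CPM (-0.90 ± 0.18, 0.00162), without overlap in either case. DICER1 with shNRP1#5 was at -0.48, -0.46 and 0.21 and AGO1 in MDA-MB-231 and HS578T at -0.07 and -0.39, none of which passed. DICER1 with shNRP1#3 was at 0.40, 0.01 and 0.52 (edgeR adjusted p = 0.609, 0.994 and 0.82). MDA-MB-231 shNRP1#3 replicate 3 had genes of SUM159PT and HS578T that are nearly silent in MDA-MB-231 controls at 2.77 and 3.21% of their levels in those lines.

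Because siNRP1#5 and shNRP1#5 have the same sequence, their knockdown effects were also set against each other in 1 contrast per line. In MDA-MB-231 the effect on DICER1 was 1.22 ± 0.33 higher on the log2 scale with shRNA than with siRNA (edgeR adjusted p = 0.012), that on AGO1 1.38 ± 0.20 higher (7.82e-05) and that on AGO4 lower by -0.84 ± 0.25 (0.0197). Of all genes 23.7% passed in MDA-MB-231, 2.51% in SUM159PT and 0.854% in HS578T, and no member passed in the latter lines, where 3 and 0 had an unadjusted edgeR p below 0.05. For AGO1 the difference was 0.61 ± 0.35 in SUM159PT and 0.62 ± 0.37 in HS578T. Since NRP1 itself was left at 3.32% of its control by siNRP1#5 and 48.1% by shNRP1#5 in MDA-MB-231, the extent of knockdown moved with this difference and its part was not tested.

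The levels of the members were compared per length, in TPM, over the 6 non-targeting control samples of each line. TARBP2, DROSHA and XPO5 were the most abundant in SUM159PT, with means of 43.2 ± 8.24, 36.7 ± 5.77 and 31.5 ± 11.5 TPM (SD, n = 6). Neighbours in this order overlapped. In MDA-MB-231 XPO5 (67.1 ± 7.69 TPM) and TARBP2 (56.5 ± 4.97 TPM) overlapped each other and stood apart from DROSHA (37.1 ± 6.2 TPM), which stood apart from AGO2 (23.4 ± 2.34 TPM). In HS578T TARBP2 (52.4 ± 11.6 TPM) was followed by AGO2 (28.3 ± 11.6 TPM), XPO5 (26.5 ± 3.3 TPM) and DROSHA (20.7 ± 3.36 TPM), which overlapped in turn. AGO4 had the lowest mean in every line, at 2.24 ± 0.95, 2.73 ± 1.08 and 1.16 ± 0.56 TPM in SUM159PT, MDA-MB-231 and HS578T, and overlapped its neighbour each time. AGO2 was the most abundant Argonaute in all 3 lines by its mean TPM over all transcripts. In SUM159PT its 4.77 to 18.5 TPM overlapped AGO1 (1.88 to 8.51 TPM) and AGO3 (1.91 to 6.52 TPM). These TPM include transcripts that are not protein-coding. Protein-coding transcripts took 34.7% of AGO2 in SUM159PT siNT and 18.8% in shNT, against 70.2 and 46.4% of AGO1 and 71.3 and 68.9% of AGO3. In HS578T they took 14.9% of AGO2 in siNT and 14.7% in shNT. The shares there were 62.0 and 35.2% of AGO1 and 60.2 and 53.7% of AGO3. In MDA-MB-231 they were 29.1 and 40.7% of AGO2, 74.9 and 54.1% of AGO1 and 41.6 and 53.7% of AGO3. The lead of AGO2 is thus not one of coding transcripts, whose order was not tested.

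**Figure D4:**
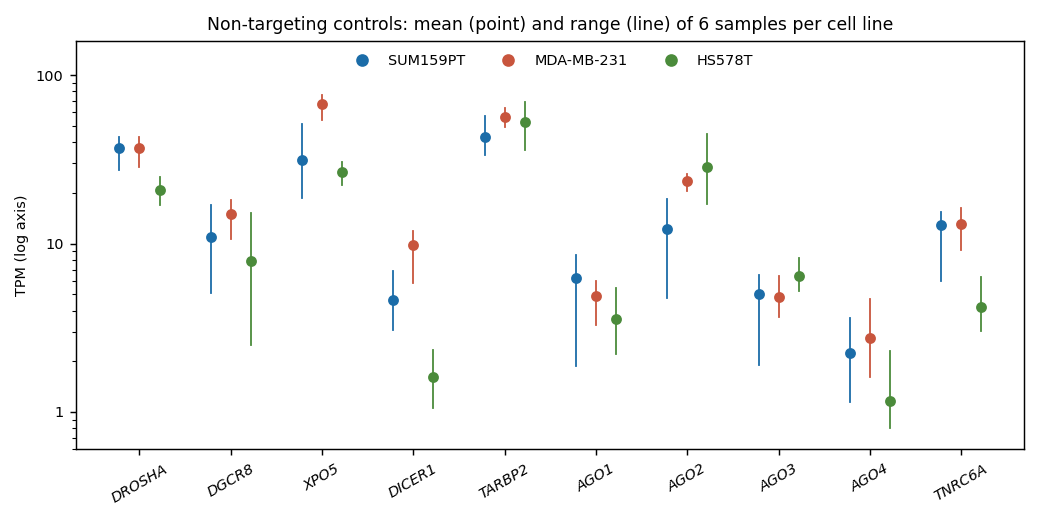
Level in TPM (log axis) of the 10 genes in the 6 non-targeting control samples of each cell line, points being means and lines running from the lowest to the highest sample. XPO5 is highest in MDA-MB-231, DICER1 and TNRC6A are lowest in HS578T, and AGO2 is lowest in SUM159PT.

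Between the lines, DICER1 had the widest spread. It averaged 4.65 ± 1.35 TPM in SUM159PT, 9.85 ± 2.38 TPM in MDA-MB-231 and 1.62 ± 0.505 TPM in HS578T (SD, n = 6). Tested on counts, HS578T was 4.76-fold lower than MDA-MB-231 (log2 fold change -2.25 ± 0.22, edgeR adjusted p = 5.75e-12) and lower than SUM159PT by -1.34 ± 0.21 (9.04e-07). AGO4 was lower in HS578T by -1.25 ± 0.18 against MDA-MB-231 and by -1.23 ± 0.18 against SUM159PT, and TNRC6A by -0.96 ± 0.19 and -1.28 ± 0.19. TARBP2 was higher in HS578T by 0.70 ± 0.14 and 0.71 ± 0.14. These 6 differences passed with edgeR adjusted p between 6.05e-08 and 4.47e-05.

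AGO2 was lower in SUM159PT than in MDA-MB-231 (1.10 ± 0.16 on the log2 scale, edgeR adjusted p = 1.42e-07) and HS578T (1.02 ± 0.16, 6e-07). XPO5 was higher in MDA-MB-231 than in SUM159PT by 0.85 ± 0.14 (1.29e-06) and HS578T was below MDA-MB-231 by -0.58 ± 0.14 (0.000252). AGO1 was highest in SUM159PT, with MDA-MB-231 at -0.63 ± 0.15 (0.000528) and HS578T at -0.43 ± 0.15 (0.0139), the latter call being lost without replicate 1 or 3 of every group. AGO3 was highest in HS578T, 0.91 ± 0.145 above MDA-MB-231 (5.86e-07) and 0.36 ± 0.144 above SUM159PT (edgeR adjusted p = 0.0266). The latter call was lost without the count filter (0.32, edgeR adjusted p = 0.276). Called members numbered 5 of 10 for MDA-MB-231 against SUM159PT, 8 for HS578T against SUM159PT and 8 for HS578T against MDA-MB-231. Over all 23416 genes 59.4, 63.5 and 70.2% were called, so the members differed between lines about as often as other genes. In bulk RNA, fewer cells with a transcript and less of it per cell cannot be told apart.

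The genes working with these proteins were taken from 4 lists, read in the shRNA against siRNA contrast. The first held 13 other genes of microRNA processing and export, such as DDX5 and DDX17, helicases of the Microprocessor. In SUM159PT 12 were higher and 0 lower, in MDA-MB-231 6 and 1, and in HS578T 8 and 1. Over all genes 19.2, 28.5 and 23.9% were called higher and 21.2, 25.7 and 25.1% lower in these lines. The median log2 fold changes of the list were 0.48, 0.15 and 0.71, beside 0.00, 0.02 and 0.00 over all genes. ERH, a small Microprocessor-binding protein, was higher in all 3 lines by 0.83, 0.30 and 0.85 (edgeR adjusted p = 0.000392, 0.00391 and 3.06e-05). SAFB2, a scaffold protein that aids the cutting of clustered hairpins, was higher by 0.89, 0.32 and 0.73 (0.000273, 0.021 and 0.000228). These were the 2 genes of the list past the threshold in the same direction in every line.

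The second list held 8 chaperones and helpers of Argonaute loading, of which 5, 2 and 5 were higher and 0, 2 and 0 lower in SUM159PT, MDA-MB-231 and HS578T, with median log2 fold changes of 0.53, -0.01 and 0.49. Over all genes 19.2, 28.5 and 23.9% were higher and 21.2, 25.7 and 25.1% lower, and the counts in MDA-MB-231 were near these shares. IPO8, an importin that binds Argonautes, was higher in all 3 by 0.49, 0.34 and 0.50 (edgeR adjusted p = 0.00709, 0.00602 and 0.0112). Among 24 silencing effectors 6, 11 and 3 were higher and 3, 5 and 6 lower, with medians of 0.14, 0.22 and -0.06. The other 15, 8 and 15 did not pass, where 40.4, 54.2 and 49.1% of all genes were called. CNOT2, a subunit of the CCR4-NOT deadenylase (0.59, 0.36 and 0.63), and DDX6, a helicase that links it to decapping (0.65, 0.40 and 0.50), were higher in every line. DCP2, the decapping enzyme (-0.46, -0.46 and -0.77), and its enhancer EDC3 (-0.42, -0.43 and -0.37) were lower in every line. Of 12 genes of small RNA tailing and turnover, 11, 11 and 9 were tested, and 4, 1 and 2 were higher and 3, 1 and 2 lower, with medians of 0.20, -0.02 and 0.04. In MDA-MB-231 9 of 11 did not pass, where 54.2% of all genes were called. XRN2, a nuclear exonuclease, was higher by 0.91, 0.43 and 0.90, and SND1, a nuclease known as Tudor-SN, was lower by -0.37, -0.59 and -0.58 (edgeR adjusted p from 1.17e-06 to 0.0115 over both genes and the 3 lines).

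**Figure D5:**
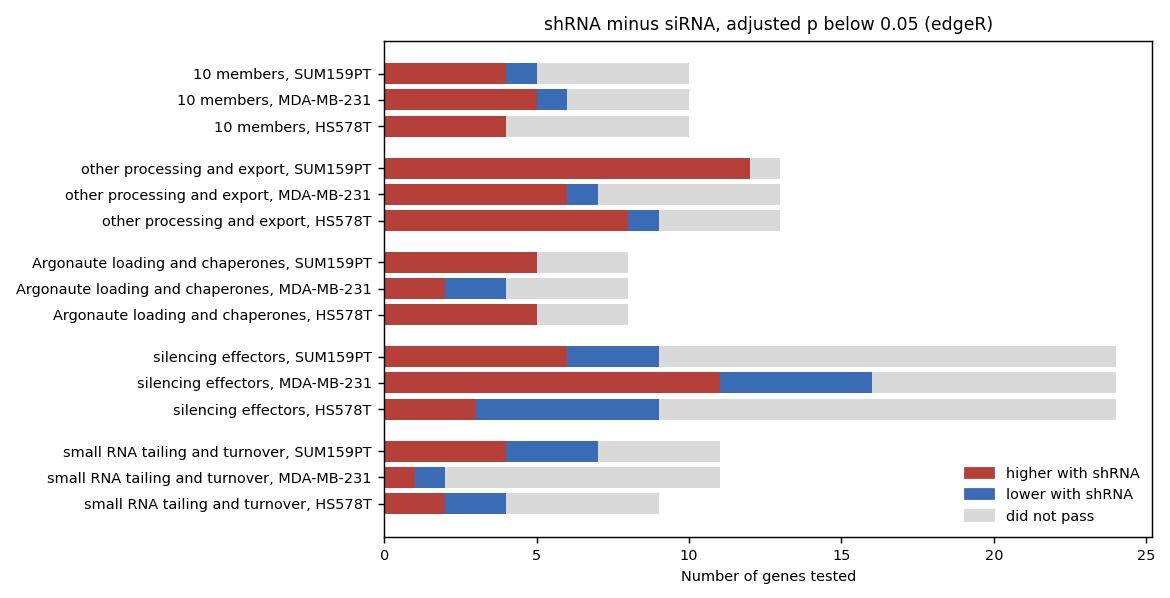
Number of genes higher, lower or not past the edgeR threshold for shRNA minus siRNA in each cell line, for the 10 members and 4 lists of genes that work with them. The bar of other processing and export genes in SUM159PT is nearly all higher (12 of 13), and silencing effectors include genes in both directions in every line.

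Each gene's expected count sums several transcripts. Protein-coding transcripts took a mean of 74.1 ± 5.65% of XPO5, 72.3 ± 2.49% of TARBP2, 56.0 ± 7.73% of DGCR8, 53.5 ± 10.0% of DICER1, 50.6 ± 10.4% of DROSHA and 28.8 ± 11.2% of AGO2 by deposited isoform percent (SD, n = 52). The transcript with the highest mean share of AGO2 was AGO2-209, annotated as subject to nonsense-mediated decay, at 29.6% over the 52 samples. The coding AGO2-201 led in SUM159PT siRNA samples (35.6 against 26.2%) and in MDA-MB-231 siRNA (29.4 against 27.3%) and shRNA samples (35.7 against 22.7%). For DGCR8 the leading coding transcript DGCR8-201 held 43.1 ± 10.7% in the 9 siRNA samples of HS578T and 59.3 ± 3.92% in its 8 shRNA samples, beside 52.3 ± 9.3 and 51.2 ± 7.29% in SUM159PT. For DROSHA the leading DROSHA-219 held 22.5 ± 5.61 and 30.3 ± 3.64% in HS578T siRNA and shRNA samples. With counts of protein-coding transcripts alone, 2 calls of members were lost over all contrasts within lines, DGCR8 for shRNA against siRNA in SUM159PT and TNRC6A for siNRP1#5 in MDA-MB-231 (0.53, edgeR adjusted p = 0.0522). The 3 gained were AGO1 with siNRP1#3 in SUM159PT and MDA-MB-231 and AGO2 with siNRP1#5 in HS578T (0.98, edgeR adjusted p = 0.0248).

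The genes most like each of the 4 members that were higher with shRNA in every line were found by Pearson's r over the 18 group means of log2 CPM, after taking out each line's mean. Because every gene called between siRNA and shRNA shares that split, high values are common and describe the pattern only. DROSHA was closest to ZSCAN12, ZNF445 (both r = 0.96) and FAM168B (0.95), and DGCR8 to EXO5 (0.96), NCOA5 and UFD1 (both 0.95). DICER1 was closest to SLC39A6 (0.94), MEF2A and NFIA (both 0.93), and AGO1 to POLE4, FBXL17 (both 0.95) and RNF216 (0.94). None of these 12 genes was another member. Among the members themselves the highest value was 0.74, for AGO2 and TNRC6A, and DROSHA and DGCR8 gave 0.49. The lowest was -0.83, between TARBP2 and AGO1.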

How the data were processed

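Per the labels and the methods, the authors trimmed reads with Trim Galore 0.6.5, checked them with FastQC 0.11.9, aligned them with STAR 2.7.2b to GRCh38 and quantified them with RSEM 1.3.3 against Ensembl 114. The deposited expected counts per gene and per transcript are RSEM estimates, not scaled for depth. The deposited TPM are scaled for length and depth by the authors, and the deposited isoform percent is a transcript's percent of its gene. Samples removed by the authors as outliers were not analysed here. Every deposited value column used was matched to a sample by its label.

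Expected counts were rounded and fitted with edgeR 4.0.16 in R 4.3.3 (filterByExpr, TMM, robust quasi-likelihood). Each cell line had its own model with 6 group means, and a model of 52 samples with 18 group means served contrasts between lines. P-values were adjusted by Benjamini-Hochberg over all genes tested, with a threshold of 0.05. CPM are TMM-scaled, except those behind the levels of other lines' genes, which are scaled to total counts. Those levels used genes with a mean of at most 0.5 CPM in the host line's non-targeting controls and at least 20 in the other line's. P-values weigh a difference against the spread between these samples, which for shRNA is that between passages of transduced cells.

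The 10 members and the lists were chosen with earlier results of these data known. Named genes are all members, per list up to 4 genes past the threshold in the same direction in all lines with the largest mean change, the 3 genes most like each member called in all lines, and NRP1. Neighbours of DGCR8 were added later. Member IDs and versions were the same in GENCODE 44, the source of coordinates. Alternatives were DESeq2 1.42.0, its size factors, no count filter, limma 3.58.1 on log2(TPM + 0.1), replicate number as a block, other sample sets and each sample left out. Depth was 25310443 to 72003441 counts, and reads carried no molecular identifiers.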

Additional observations from a re-analysis of the deposited data

Results flagged for a closer look

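The members below gave effects that differed between cell lines or between siRNA and shRNA by a test of the difference itself. The shRNA minus siRNA difference was not equal in the 3 lines for DGCR8 (edgeR adjusted p = 1.57e-07, log2 fold changes 0.53, 0.33 and 2.00 in SUM159PT, MDA-MB-231 and HS578T). The same test passed for AGO3 (edgeR adjusted p = 0.00146, with 0.28, 0.37 and -0.30). Leaving out replicate 2 of every group ended the AGO3 call (edgeR adjusted p = 0.112).

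In MDA-MB-231, the effect of sequence #5 with shRNA minus that with siRNA was 1.22 on the log2 scale for DICER1, 1.38 for AGO1 and -0.84 for AGO4. The AGO4 call was lost without shNRP1#5 replicate 3 and without siNT replicate 2, with edgeR adjusted p up to 0.0601. The DICER1 and AGO1 calls held in each of the 18 fits that left out a sample.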

How the results depend on the processing

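Of 5220 recomputed values of single members, 5095 kept their direction and their side of the threshold, 70 lost a call, 54 gained a call and 1 reversed. The reversed value was TNRC6A for shRNA minus siRNA in MDA-MB-231, at 0.36 by limma on TPM against -0.05, and the cause was not tested. Counts of called members moved by over 1.5 times as follows. In SUM159PT, shNT minus siNT gave 0 members in place of 1 without the count filter or with only those groups fitted, and 0 to 1 with a sample left out. siNRP1#3 gave 2 in place of 1 by DESeq2, by protein-coding transcripts and with the replicate block, and 1 to 2 with a sample left out. siNRP1#5 gave 0 in place of 5 with only its 2 groups fitted and 2 to 6 with a sample left out, and the sequence #5 difference gave 1 by DESeq2 and 0 to 2 in place of 0. In MDA-MB-231, shNT minus siNT gave 1 in place of 0 with only those groups fitted and 0 to 1 with a sample left out. siNRP1#5 gave 2 in place of 4 with only its groups fitted and 2 to 5 with a sample left out. shNRP1#5 gave 2 in place of 1 without the count filter or with only its groups fitted, DICER1 being gained. The sequence #5 difference gave 2 to 5 in place of 3. In HS578T, shRNA minus siRNA gave 2 in place of 4 with the NT and #3 groups alone, and siNRP1#5 gave 1 to 3 in place of 2 with a sample left out. The test of equal differences in the 3 lines gave 1 to 3 in place of 2. Fits of only 2 groups had fewer samples. With replicate number as a block, 244 of 250 values kept their call, 6 gained 1 and 0 lost it. The calls gained with the block were AGO3 (0.27, edgeR adjusted p = 0.0465) and AGO4 (-0.42, 0.0499) for shRNA minus siRNA in SUM159PT and HS578T respectively, AGO1 (-0.66, 0.0445) and TARBP2 (0.48, 0.0475) with siNRP1#3 in SUM159PT and MDA-MB-231, and TNRC6A (0.95, 0.0186) and AGO2 (0.66, 0.0375) with siNRP1#5 in SUM159PT and HS578T. Deviations from group means correlated by over 0.1 in 20 of 40 same-numbered pairs of SUM159PT samples against 7 of 80 other pairs, in MDA-MB-231 in 9 of 45 against 9 of 90, and in HS578T in 14 of 40 against 17 of 80. On average 14 of 17, 14 of 18 and 12 of 17 samples correlated best with their own number, a hint of pairing from the data. Neither the labels nor every pair bears it out, so the block stayed an alternative. Size factors of DESeq2 moved the median of all genes by at most 0.076 on the log2 scale. The lowest member, AGO4, had 61 counts or more, so depth did not limit detection. Settings with protein-coding transcripts and without HS578T siNRP1#5 were chosen after seeing the data.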
